A study of Mus musculus with 12 samples.

Results

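Stem and progenitor genes were followed in RNA-seq libraries of myeloid-derived suppressor cells (MDSCs), immature myeloid cells that accumulate in tumors and restrain T cells. The 10 genes were Cd34, Spink2, Kit, Flt3, Sox4, Gata2, Meis1, Myb, Hoxa9 and Erg, and each of them had a row in all 12 deposited tables of 24346 gene symbols. They were selected on the measured levels in these same libraries, since genes of this kind had been seen to be higher after treatment with a histone deacetylase (HDAC) inhibitor. The values of treated and vehicle libraries therefore chose the genes, and that contrast is given as a description, with no p-value. How many of the genes limma called in it is printed once for each subset beside the share over all genes, and nothing is read from it. Tests are given for the vehicle libraries of both cell types, with Meis1 there as a description. They are also given for MS-275 against CXD101, for the genes whose passing of the filter or choice did not rest on 1 treated group. The same treated libraries took part in choosing the genes, so those tests are not free of that choice. Vehicle values took part as well, so the tests between the vehicle groups are not free of it either. No conclusion is drawn from the p-values of either comparison for these genes. A description as induced genes did not hold for all of them: Meis1 and Flt3 were lower in treated than in vehicle M-MDSCs, and Gata2 and Sox4 were not higher in treated PMN-MDSCs.

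The cells were sorted from tumors of Hepa 1-6, a mouse hepatoma line that was grown in the liver of female C57BL/6J mice of 6 to 8 weeks (genotype WT). M-MDSCs, the monocytic subset, were CD11b+ cells with high Ly-6C and no Ly-6G, and PMN-MDSCs, the polymorphonuclear subset, were CD11b+ cells with intermediate Ly-6C and with Ly-6G. Each subset had 2 libraries from vehicle-treated mice, 2 from MS-275-treated mice and 2 from CXD101-treated mice, and both drugs inhibit HDAC1-3. Mice with more than 20% MDSCs in blood at day 10 after inoculation received vehicle or 5 mg/kg of drug intraperitoneally every day for 10 days, and tumors were taken at day 21. The M-MDSC libraries are described as biological replicates. The PMN-MDSC libraries are given by the labels alone, and whether mice were pooled is not given in the sources used here.

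Blood cell formation starts from rare stem cells that give rise to progenitors of ever narrower potential. CD34 is a surface sialomucin of stem and progenitor cells, KIT and FLT3 are receptor tyrosine kinases for stem cell factor and FLT3 ligand, and SPINK2 is a serine protease inhibitor found in blood progenitors. MYB, GATA2, ERG, MEIS1, HOXA9 and SOX4 are transcription factors that hold progenitors in an immature or dividing state, and several of them are driven up in leukemia. Mature monocytes and neutrophils hold little of most of these transcripts.

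The libraries differed in a few ways that touch these genes. Values were FPKM, which divides the fragments of a gene by its transcript length and by the library total, so levels can be set side by side between genes. No counts were used, and the spacing of the lowest FPKM values gave an estimate of depth: 1 read on 1 kb of transcript stood for an FPKM of 0.096 to 0.121 in M-MDSCs and 0.124 to 0.144 in PMN-MDSCs. Log2 values of replicate libraries correlated across genes with r of 0.9945 to 0.9961. The neutrophil genes S100a8 and S100a9 together took 1.78 and 1.95% of all FPKM in vehicle M-MDSC libraries, 3.57 to 4.28% in treated M-MDSC libraries, 10.2 and 13.7% in vehicle PMN-MDSC libraries and 27.3 to 30.9% in treated PMN-MDSC libraries. Of 7 listed polymorphonuclear markers 6 were found, and Ly6g was not analysed here. All 6 were higher in vehicle PMN-MDSCs, beside 17.2% of all genes. Of these 6, 4 (Csf3r, Cxcr2, S100a8 and S100a9) were called higher with each inhibitor in M-MDSCs, beside 10.1% of all genes with MS-275 and 5.14% with CXD101. In PMN-MDSCs 4 (Cxcr2, Retnlg, S100a8 and S100a9) were called higher with each, beside 14.6% and 11.9%. These markers moved with the genes below, and their part in those levels was not tested. Of 6 monocytic markers 4, Ccr2 and Ly6c2 among them, were lower in vehicle PMN-MDSCs, beside 16.8% of all genes. With the inhibitors Ly6c2 was called higher in both subsets, Ly6c1 in both with MS-275 and in PMN-MDSCs with CXD101, F13a1 in M-MDSCs with CXD101, and Csf1r was called lower in PMN-MDSCs with each.

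The promoters of 5 of the genes are shown as reference sequence, up to the annotated gene start. The most upstream RefSeq start was used, which for Erg lies 56228 bases from the start of the main annotated transcript and for Spink2 266 bases. Which start is used in these cells was not tested. Cd34 and Spink2 are shown because their levels differed most between the inhibitors, Kit and Erg because they were highest in treated PMN-MDSCs, and Meis1 because it was lower in treated M-MDSCs. The bases come from RefSeq and build GRCm38.p6 and are written 5′ to 3′ on the strand of the gene: chr1:194938571-194938818 for Cd34 (plus strand), chr5:77211472-77211721 for Spink2 (minus), chr5:75574737-75574915 for Kit (plus), chr16:95586594-95586843 for Erg (minus) and chr11:19018986-19019219 for Meis1 (minus). Capitals mark the letters of a GC box (GGGCGG or CCGCCC), an ETS motif (AGGAAG or CTTCCT) or a RUNX motif (TGTGGT or ACCACA).
Cd34: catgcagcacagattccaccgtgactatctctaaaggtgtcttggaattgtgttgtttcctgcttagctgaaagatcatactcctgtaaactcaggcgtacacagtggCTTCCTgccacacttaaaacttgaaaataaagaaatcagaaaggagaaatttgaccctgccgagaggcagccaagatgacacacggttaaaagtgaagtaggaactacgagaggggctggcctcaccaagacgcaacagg
Spink2: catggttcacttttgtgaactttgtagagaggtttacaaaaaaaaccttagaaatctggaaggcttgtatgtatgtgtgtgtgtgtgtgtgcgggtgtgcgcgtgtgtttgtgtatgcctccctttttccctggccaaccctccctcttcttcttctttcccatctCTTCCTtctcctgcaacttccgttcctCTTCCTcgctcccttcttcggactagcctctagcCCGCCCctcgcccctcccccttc
Kit: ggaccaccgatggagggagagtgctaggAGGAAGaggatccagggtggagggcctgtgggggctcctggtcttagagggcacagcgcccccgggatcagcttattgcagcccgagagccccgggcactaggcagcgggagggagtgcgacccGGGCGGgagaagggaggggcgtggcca
Erg: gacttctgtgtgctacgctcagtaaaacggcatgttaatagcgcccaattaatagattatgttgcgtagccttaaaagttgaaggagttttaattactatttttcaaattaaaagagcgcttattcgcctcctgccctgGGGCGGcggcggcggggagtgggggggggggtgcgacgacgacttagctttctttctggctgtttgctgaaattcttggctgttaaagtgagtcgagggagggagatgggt
Meis1: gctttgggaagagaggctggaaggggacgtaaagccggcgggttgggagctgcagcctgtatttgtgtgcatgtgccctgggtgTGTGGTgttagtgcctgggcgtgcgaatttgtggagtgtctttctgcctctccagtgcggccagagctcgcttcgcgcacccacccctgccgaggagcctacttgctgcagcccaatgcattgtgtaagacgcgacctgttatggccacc

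Over windows of 250 bases before the most upstream RefSeq start, a GC box stood in 6 of the 10 genes (Spink2, Kit, Gata2, Myb, Hoxa9 and Erg), against 32.7% of all 32851 such windows. The ETS letters AGGAAG stood in Cd34, Spink2, Kit, Sox4 and Hoxa9, 5 of 10, against 29.5% of windows. GATAA stood in Sox4 and Hoxa9 (22.6% of windows), and TGTGGT in Meis1 alone of the 10 (14.0%). The loose MYB letters AACNG, which are not in capitals, stood in 7 of 10 (74.2%). The MEIS letters TGACAG stood in 0 of 10 (15.9%). Both strands were searched, and no 2 of the matches in capitals overlapped. A match of letters is a description and not a binding site. The start used for Gata2 lies 4443 bases from that of its main annotated transcript, and the start used for Erg lies 56228 bases away. The window of Kit held 70.8% G and C bases and that of Cd34 46.4%, beside a median of 52.4% over all windows.

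In M-MDSCs, Cd34 and Spink2 went from low levels in vehicle to some of the highest levels among the 10 genes under MS-275. The FPKM of Cd34 was 1.56 and 0.79 in the vehicle libraries, 36.6 and 35.0 with MS-275 and 8.73 and 8.94 with CXD101. That is a ratio of means of 30.5 for MS-275 and 7.52 for CXD101, and the 3 groups did not overlap. On the log2(FPKM + 1) scale, which makes changes of genes near 0 look smaller, Cd34 differed from vehicle by 4.10 (SE 0.15) with MS-275 and 2.2 (SE 0.15) with CXD101. Cd34 lies on chromosome 1 of GRCm38 from 194938819 to 194961279 on the plus strand, where Gm16897 overlaps it on the other strand.

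The FPKM of Spink2 in M-MDSCs was 2.86 and 2.55 in vehicle, 39.0 and 40.1 with MS-275 and 11.3 and 11.7 with CXD101. Again the 3 groups did not overlap, with MS-275 highest and vehicle lowest. Its difference from vehicle was 3.46 (SE 0.084) with MS-275 and 1.76 (SE 0.084) with CXD101 on the log2(FPKM + 1) scale. Spink2 lies on the minus strand of chromosome 5, from 77205107 to 77211471.

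**Figure D1:**
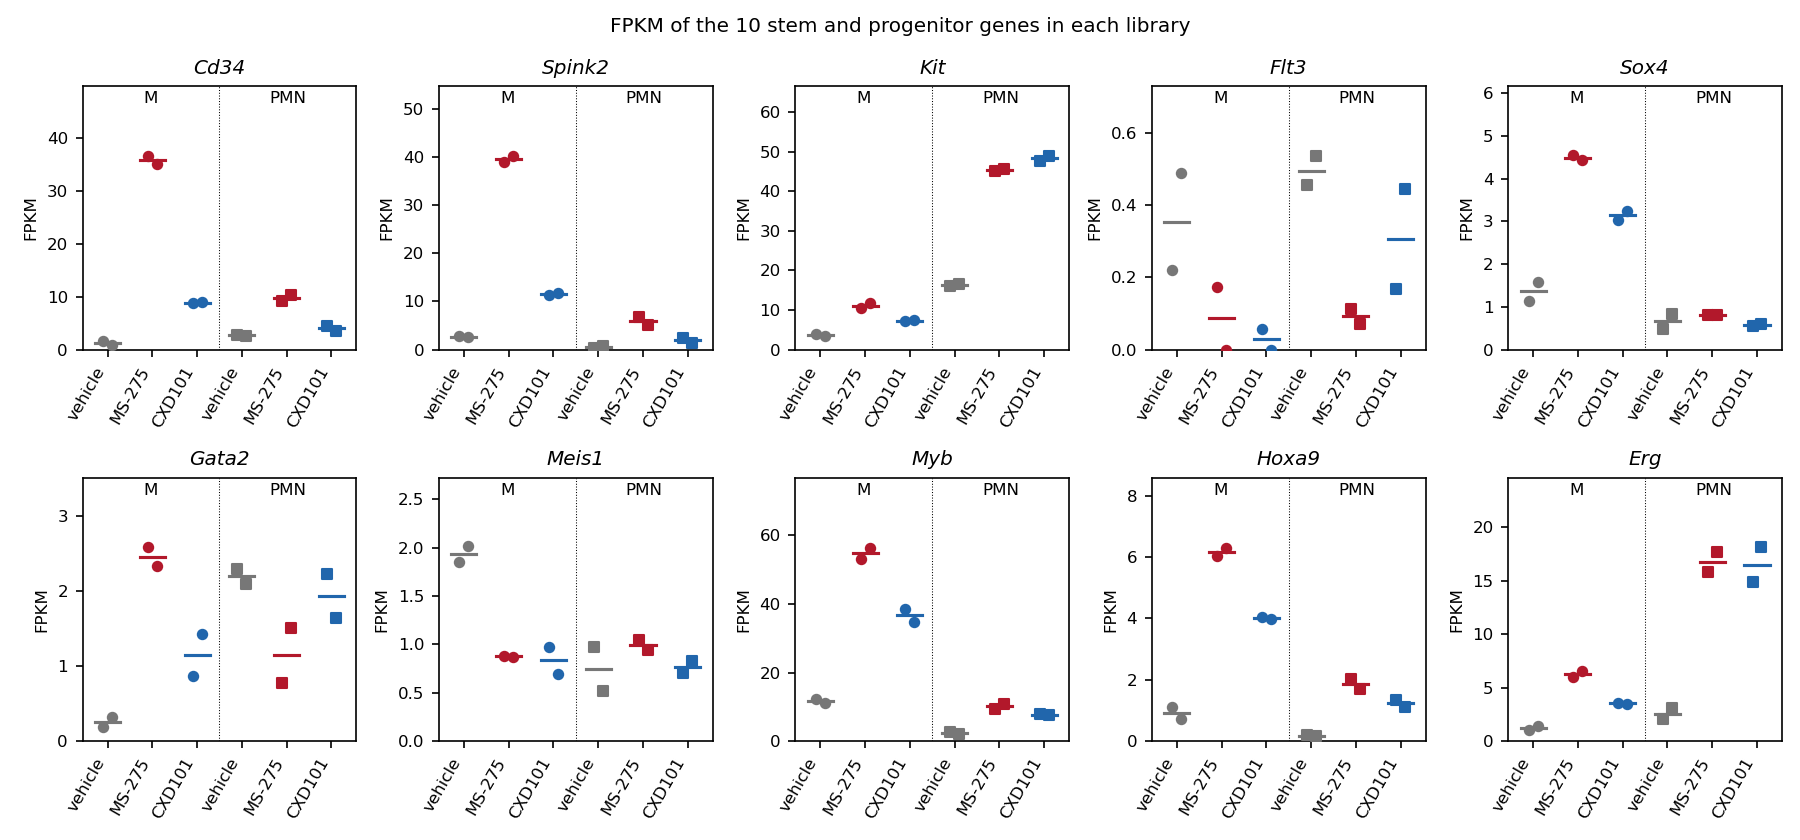
FPKM of the 10 stem and progenitor genes in each of the 12 libraries, with 1 panel per gene, vehicle in grey, MS-275 in red and CXD101 in blue, M-MDSCs as circles on the left and PMN-MDSCs as squares on the right. Points are libraries and short lines are means of 2, each panel has its own scale from 0, and Cd34 and Spink2 stand highest in M-MDSCs with MS-275 while Kit and Erg stand highest in treated PMN-MDSCs.

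The other genes lie, in GRCm38 with GENCODE M21, at 75574916 to 75656722 of chromosome 5 (Kit, plus strand), 147330741 to 147400489 of chromosome 5 (Flt3, minus) and 28948919 to 28953713 of chromosome 13 (Sox4, minus). Gata2 lies at 88193891 to 88207032 of chromosome 6 (plus) and Hoxa9 at 52223100 to 52231089 of the same chromosome (minus). Meis1 is at 18879817 to 19018985 of chromosome 11, Myb at 21124935 to 21160984 of chromosome 10 and Erg at 95359169 to 95586593 of chromosome 16, all on the minus strand. Annotated genes on the other strand overlap Flt3, Sox4, Meis1 and Myb as they do Cd34, and it is not given in the sources used here whether reads were assigned by strand, so those partners cannot be told apart from the gene.

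Kit, the receptor for stem cell factor, moved in the same direction with a smaller ratio. Its FPKM in M-MDSCs was 3.86 and 3.38 in vehicle, 10.4 and 11.7 with MS-275 and 7.18 and 7.48 with CXD101. The difference from vehicle was 1.38 (SE 0.10) and 0.85 (SE 0.10). Flt3, the other receptor tyrosine kinase, stayed below an FPKM of 1 in all 12 libraries and was not tested. It was listed at 0.22 and 0.49 in vehicle M-MDSCs, 0.17 and 0 with MS-275, and 0.06 and 0 with CXD101. In PMN-MDSCs the FPKM of Flt3 was 0.46 and 0.54 in vehicle, 0.11 and 0.07 with MS-275, and 0.17 and 0.45 with CXD101. By the estimated depth, no Flt3 value stood for more than about 16 reads, and the lowest above 0 stood for about 1.90, so its order between groups rests on few reads.

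Myb, which keeps myeloid progenitors dividing, had the highest level of the transcription factors. Its FPKM in M-MDSCs was 12.4 and 11.1 in vehicle, 53.1 and 56.4 with MS-275 and 38.5 and 34.8 with CXD101, a ratio of 4.66 and 3.12. Hoxa9 encodes a homeobox factor of early progenitors. The FPKM of Hoxa9 was 1.10 and 0.71 in vehicle, 6.04 and 6.31 with MS-275 and 4.06 and 3.98 with CXD101. Erg, an ETS factor of stem cells and of endothelium, was at 1.09 and 1.38, at 6.0 and 6.58 and at 3.54 and 3.51 in the same order. For all 3 of these genes MS-275 libraries were highest, CXD101 libraries came between and vehicle libraries were lowest, without overlap.

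Sox4 and Gata2 showed the same order of groups at lower levels. The FPKM of Sox4, an HMG-box factor, was 1.14 and 1.59 in vehicle M-MDSCs, 4.54 and 4.43 with MS-275 and 3.04 and 3.25 with CXD101. Gata2, a zinc finger factor of stem cells and mast cells, was at 0.19 and 0.33, then 2.58 and 2.33, then 0.86 and 1.42. Its vehicle values stood for about 6.28 and 10.4 reads by the estimated depth. Meis1, a homeobox partner of HOXA9, went the other way, with 1.85 and 2.02 in vehicle, 0.88 and 0.87 with MS-275 and 0.97 and 0.70 with CXD101. The difference from vehicle was -0.65 (SE 0.15) with MS-275 and -0.68 (SE 0.15) with CXD101, and the treated groups of Meis1 overlapped each other but not vehicle.

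Of the 10 genes, 9 passed the filter (an FPKM of 1 or more in 2 or more of the 6 libraries) in M-MDSCs, of which Cd34, Gata2 and Hoxa9 passed it only with the help of treated libraries and Meis1 only through vehicle libraries. A gene let in by the group where it is high had to differ. A call needed a Benjamini-Hochberg adjusted p below 0.05 together with a difference of more than 1.5-fold, and limma called 8 of the 9 higher and Meis1 lower with each inhibitor. Over all 11078 genes tested in M-MDSCs, 10.1% were called higher and 7.32% lower with MS-275, and 5.14% higher and 3.0% lower with CXD101. Since the treated values chose the genes, nothing is read from these counts. When either vehicle library was left out, Meis1 no longer passed the filter and was not tested. In bulk libraries, fewer cells of a type and less RNA per cell cannot be told apart.

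In treated PMN-MDSCs Kit and Erg were the highest of the 10 genes, and their levels under both inhibitors lay close together. The FPKM of Kit was 16.2 and 16.6 in vehicle, 45.1 and 45.5 with MS-275 and 47.7 and 48.9 with CXD101. The difference from vehicle was 1.41 (SE 0.069) with MS-275 and 1.5 (SE 0.069) with CXD101. Erg was at 2.03 and 3.06 in vehicle, at 15.8 and 17.7 with MS-275 and at 14.9 and 18.1 with CXD101. Its difference from vehicle was 2.34 (SE 0.16) and 2.31 (SE 0.16), and the treated groups of Erg overlapped fully while vehicle stood apart below them.

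Cd34 and Spink2 were lower in PMN-MDSCs than in M-MDSCs under MS-275. The FPKM of Cd34 was 2.81 and 2.56 in vehicle PMN-MDSCs, 9.14 and 10.2 with MS-275 and 4.54 and 3.57 with CXD101, a ratio of 3.61 and 1.51. Spink2 was at 0.32 and 0.66 in vehicle, at 6.71 and 5.2 with MS-275 and at 2.45 and 1.47 with CXD101. Its vehicle values stood for about 1.67 and 3.31 reads, so no ratio is given. Myb was at 2.75 and 2.15, at 9.41 and 10.8 and at 8.01 and 7.50 in the same order. Hoxa9 was at 0.19 and 0.16 in vehicle (about 4.83 and 4.07 reads), at 2.02 and 1.68 with MS-275 and at 1.35 and 1.12 with CXD101. For Cd34, Spink2, Myb and Hoxa9 the order was the one seen in M-MDSCs, with MS-275 highest, CXD101 next and vehicle lowest, and no groups overlapped.

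Gata2 did not follow that order in PMN-MDSCs. Its FPKM was 2.29 and 2.09 in vehicle, 0.77 and 1.51 with MS-275 and 2.23 and 1.65 with CXD101, so that MS-275 stood below vehicle and CXD101 overlapped vehicle. Sox4 and Meis1 did not pass the filter in PMN-MDSCs. The FPKM of Sox4 was 0.49 and 0.84 in vehicle, 0.81 and 0.81 with MS-275, and 0.55 and 0.61 with CXD101. Meis1 was at 0.97 and 0.51, at 1.05 and 0.95 and at 0.71 and 0.83. Both treated groups of Sox4 and of Meis1 overlapped vehicle.

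Of the 10 genes, 7 passed the filter in PMN-MDSCs, Spink2 and Hoxa9 only through treated libraries. With MS-275, 6 of the 7 were called higher and Gata2 lower, and with CXD101, 5 of the 7 were called higher while Cd34 and Gata2 were not called. Among all 11184 genes tested in PMN-MDSCs, 14.6% were called higher and 14.2% lower with MS-275, and 11.9% higher and 9.54% lower with CXD101. As before, nothing is read from these counts.

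**Figure D2:**
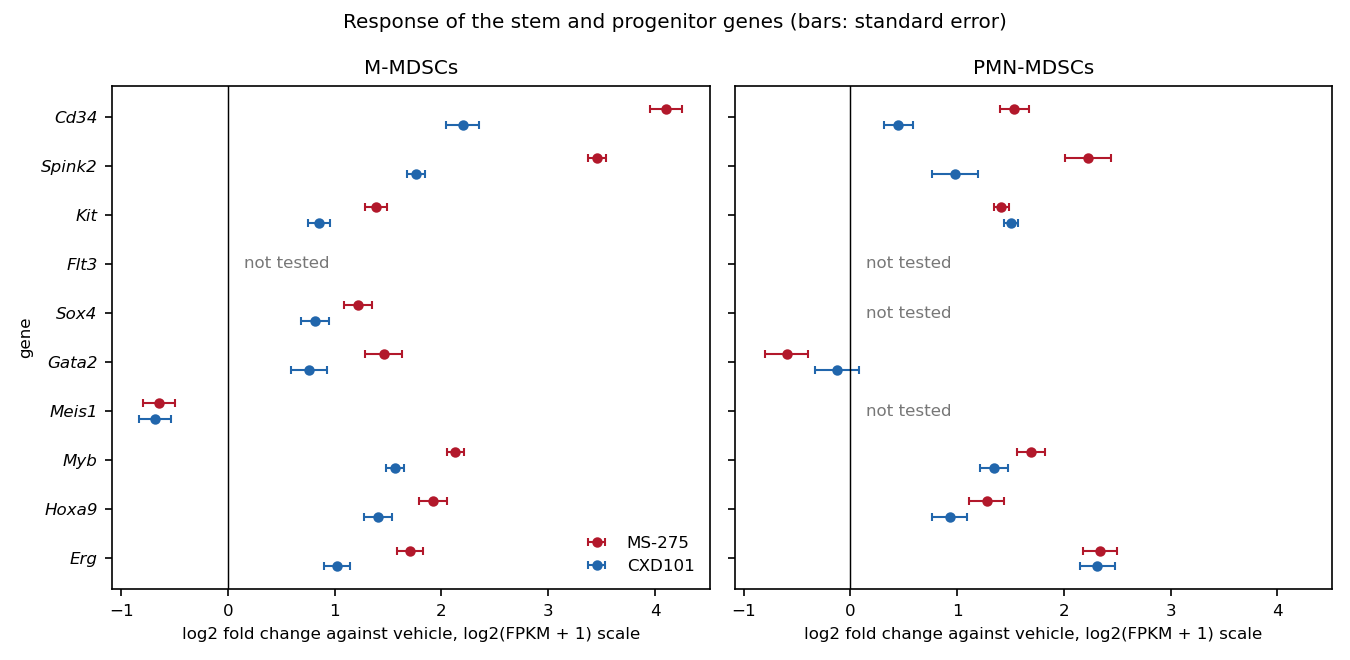
Log2 fold change against vehicle of each gene on the log2(FPKM + 1) scale in M-MDSCs (left) and PMN-MDSCs (right), MS-275 in red and CXD101 in blue, with bars for the standard error. In M-MDSCs the values of MS-275 lie above those of CXD101 for 8 genes and Meis1 lies below 0, while in PMN-MDSCs Kit and Erg have nearly the same value with both drugs.

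The response of each gene in the 2 subsets is set side by side as values only. With MS-275 the difference in response, PMN-MDSCs minus M-MDSCs on the log2(FPKM + 1) scale, was -2.57 (SE 0.22) for Cd34 and -1.23 (SE 0.24) for Spink2. It was 0.03 (SE 0.11) for Kit, -0.44 (SE 0.15) for Myb and 0.63 (SE 0.21) for Erg. For Gata2 it was -2.06 (SE 0.27), since the gene was higher in both treated M-MDSC libraries and lower in both treated PMN-MDSC libraries. With CXD101 the difference in response was -1.75 (SE 0.22) for Cd34, 0.65 (SE 0.11) for Kit and 1.29 (SE 0.21) for Erg. For Hoxa9 the sign of the difference depends on the pseudocount: with MS-275 it was -0.64 with a pseudocount of 1 and 0.16 with a pseudocount of 0.1.

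In the order of the 6 group means, M-MDSCs with MS-275 came first for Cd34, Spink2, Sox4, Gata2, Myb and Hoxa9. PMN-MDSCs with CXD101 came first for Kit, with 47.7 and 48.9, just above PMN-MDSCs with MS-275. For Erg the first 2 groups, PMN-MDSCs with MS-275 and with CXD101, overlapped. Vehicle M-MDSCs were lowest for Cd34, Kit, Gata2 and Erg, and vehicle PMN-MDSCs were lowest for Spink2, Myb and Hoxa9. Neighbours in the order overlapped for Flt3, Gata2, Meis1, Sox4 and Erg, and for the other 5 genes no neighbouring groups overlapped.

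MS-275 and CXD101 were given at the same dose and schedule where these are described, and the 2 treated groups of each subset were compared directly. This was 1 pair of compounds in 2 subsets, with p-values adjusted over all genes of a subset. The treated libraries compared here also took part in choosing the genes. The tests are not free of that choice, so no conclusion is drawn from their p-values in either subset. In M-MDSCs, Erg was higher with MS-275 than with CXD101 by 0.69 on the log2(FPKM + 1) scale (95% CI 0.41 to 0.97, limma adjusted p = 0.0104). Gata2 is given as a description, at 0.70 (SE 0.17), since it passed the filter only through the MS-275 libraries and 1 CXD101 library. Cd34 and Spink2, whose high MS-275 values were known when they were chosen, are likewise a description, with 1.90 (SE 0.15) and 1.70 (SE 0.084).

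For 3 further genes in M-MDSCs the difference passed the p-value limit but not the fold limit. Myb differed by 0.57 (95% CI 0.38 to 0.76, limma adjusted p = 0.00527), Kit by 0.53 (95% CI 0.29 to 0.77, limma adjusted p = 0.015) and Hoxa9 by 0.51 (95% CI 0.21 to 0.82, limma adjusted p = 0.0391). Sox4 was at 0.41 (95% CI 0.10 to 0.71, limma adjusted p = 0.0803) and Meis1 at 0.04 (95% CI -0.30 to 0.37, limma adjusted p = 0.896). By limma, Erg and the 3 described genes, 4 of the 9, were called higher and 0 lower (8 higher and 0 lower at an unadjusted p under 0.05), where 3.22% of all genes were called higher and 1.17% lower. Nothing is read from that count or from the p-values of single genes, since treated values took part in choosing all of these genes. The call of Erg was lost without either CXD101 library (adjusted p = 0.0537 and 0.0505) or without the second MS-275 library (adjusted p = 0.0699), all from limma, and 2 genes were called without that last library.

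In PMN-MDSCs Cd34 and Spink2 stood farthest apart between the inhibitors, and they are again a description: the difference was 1.09 (SE 0.14) for Cd34 and 1.25 (SE 0.22) for Spink2, which passed the filter only through treated libraries. By limma these 2 of the 7 genes were called higher and 0 lower (3 higher and 0 lower at an unadjusted p under 0.05), where 0.465% of all genes were called higher and 0.340% lower, and again nothing is read from the count. When any 1 of the 4 treated libraries was left out, 0 of the 7 genes were called. The 2 libraries of each group did not overlap in either gene.

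For the other 5 genes in PMN-MDSCs the difference between the inhibitors did not pass the threshold. Kit differed by -0.09 (95% CI -0.25 to 0.07, limma adjusted p = 0.594) and Erg by 0.03 (95% CI -0.35 to 0.40, limma adjusted p = 0.965). Myb was at 0.34 (95% CI 0.03 to 0.65, limma adjusted p = 0.281), Hoxa9 at 0.35 (95% CI -0.03 to 0.73, limma adjusted p = 0.362) and Gata2 at -0.47 (95% CI -0.94 to 0.003, limma adjusted p = 0.328). The interval of Kit was the narrowest of the 7.

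**Figure D3:**
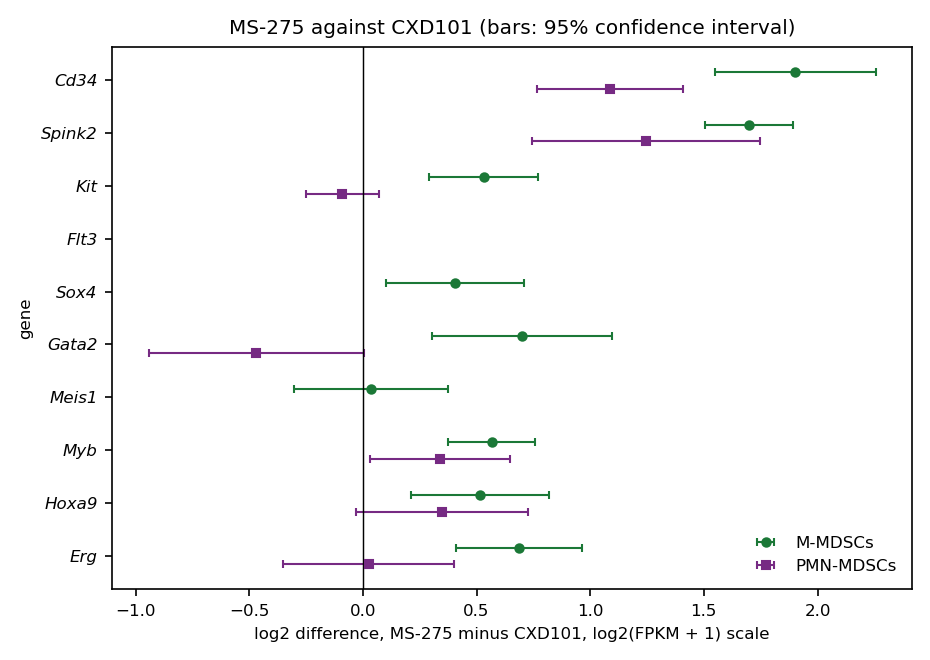
Difference between MS-275 and CXD101 for each gene on the log2(FPKM + 1) scale, M-MDSCs as green circles and PMN-MDSCs as purple squares, with bars for the 95% confidence interval. Cd34 and Spink2 lie farthest to the right in both subsets, and the intervals of Kit and Erg in PMN-MDSCs include 0.

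In the vehicle libraries the levels of most of the genes already differed between the subsets, in both directions. Vehicle values also took part in choosing the genes, so no conclusion is drawn from the p-values. Set against M-MDSCs, PMN-MDSCs held more Kit, by 1.91 (SE 0.080, limma adjusted p = 1.61e-08), more Gata2, by 1.35 (SE 0.19, limma adjusted p = 0.000121), more Cd34, by 0.78 (SE 0.16, limma adjusted p = 0.00126) and more Erg, by 0.65 (SE 0.15, limma adjusted p = 0.00287). Lower in PMN-MDSCs were Myb (-1.89, SE 0.11, limma adjusted p = 1.38e-07) and Spink2 (-1.32, SE 0.17, limma adjusted p = 5.6e-05). Hoxa9 (-0.69, SE 0.13, limma adjusted p = 0.00101) was lower as well. Meis1, at -0.76 (SE 0.15), is a description. It passed the filter only with the vehicle M-MDSC libraries, where it was high, and 1 treated PMN-MDSC library. Sox4 was at -0.51 (SE 0.14, limma adjusted p = 0.00928) and did not pass the fold limit.

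In all, limma called 4 of the 9 genes higher and 4 lower, with Meis1 among the lower ones as a description. Of all 11662 genes 17.2% were called higher and 16.8% lower, and nothing is read from the counts of the 9 genes. The call of Cd34 was lost without the second vehicle M-MDSC library (0.53), that of Hoxa9 without the first (-0.54) and that of Meis1 without the second vehicle PMN-MDSC library (-0.57), since the fold limit was then missed. The call of Erg was lost without the first vehicle M-MDSC library (0.56), without the second vehicle PMN-MDSC library (0.44) and with quantile normalization (0.55). Sox4 was called lower without the first vehicle M-MDSC library (-0.64), without the second vehicle PMN-MDSC library (-0.66) and with a pseudocount of 0.1 (-0.96).

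Other stem and progenitor genes were taken from 3 lists of 52 genes in all: 12 surface and secreted genes, 26 transcription factors and 14 ligands and partners of the factors above. The lists were chosen with earlier results of these data known, so p-values of their genes are not free of that knowledge. In M-MDSCs 34 of the 52 genes were tested. With MS-275, 12 were called higher and 0 lower (35.3% higher, beside the 10.1% of all genes), where an unadjusted limma p under 0.05 was reached by 20 higher and 4 lower genes, with a median log2 fold change of 0.36 beside -0.06 over all genes. With CXD101, 7 were called higher and 0 lower (20.6%, beside 5.14%; 16 higher and 2 lower at an unadjusted limma p under 0.05), with a median of 0.15 beside -0.02. Of the 34, 6 passed the filter only through treated libraries (Hlf, Hoxa7, Hoxa10, Bcl11a, Satb1 and Sox12), and all 6 of these are among the 12. They had to differ from vehicle, so they are given by their values, and the share called is not read as a result.

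Among the surface genes, Adgrg1, an adhesion receptor of stem cells also known as GPR56, was at an FPKM of 1.16 and 1.06 in vehicle M-MDSCs, 15.1 and 13 with MS-275 and 5.56 and 6.72 with CXD101. Its log2 fold change was 2.83 (SE 0.12, limma adjusted p = 2.92e-06) with MS-275 and 1.75 (SE 0.12, limma adjusted p = 9.14e-05) with CXD101. Eng, which encodes the TGF-beta co-receptor endoglin, rose from 2.83 and 2.86 to 16.6 and 16.8 with MS-275 and to 10.7 and 11.2 with CXD101. Prom1, the CD133 gene, rose from 11.1 and 8.29 to 21.4 and 22.3 with MS-275 and to 20.3 and 20.5 with CXD101. Procr, the protein C receptor gene that marks stem cells, rose with MS-275 from 2.41 and 1.98 to 4.44 and 3.35 (0.61, SE 0.15, limma adjusted p = 0.0124), and was at 1.79 and 1.5 with CXD101. Its call was lost without the first MS-275 library (limma adjusted p = 0.0934) or the second vehicle library (0.0717) and with quantile normalization (0.0616).

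The homeobox genes Hoxa7 and Hoxa10, of the cluster that holds Hoxa9, are given as values only. Hoxa7 was at 0.22 and 0.11 in vehicle M-MDSCs, 3.40 and 3.36 with MS-275 and 2.0 and 1.29 with CXD101. Hoxa10 was listed at 0 in both vehicle libraries, at 1.14 and 1.06 with MS-275 and at 0.25 and 0.37 with CXD101. Gfi1, a repressor of early myeloid progenitors, rose from 12.5 and 13.9 to 33.9 and 37.0 with MS-275 and to 31.2 and 33.0 with CXD101. Zfpm1, the gene of the GATA partner FOG-1, rose with MS-275. Bcl11a was at 0.53 and 0.31 in vehicle, 2.42 and 2.16 with MS-275 and 1.03 and 1.5 with CXD101. Sox12 was at 0.43 and 0.33, then 2.51 and 2.14, then 1.17 and 1.41, and Satb1 at 0.61 and 0.72, then 2.72 and 2.56, then 1.12 and 1.21. Hlf was at 0.26 and 0.29 in vehicle and at 1.12 and 1.16 with MS-275, and its call with MS-275 was lost with quantile normalization (limma adjusted p = 0.153).

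In PMN-MDSCs 32 of the 52 genes were tested. With MS-275, 11 were called higher and 1 lower, beside 14.6% and 14.2% of all genes (18 higher and 5 lower at an unadjusted limma p under 0.05). With CXD101, 10 were called higher and 1 lower, beside 11.9% and 9.54% (17 higher and 5 lower unadjusted). Here 4 of the 32 passed only through treated libraries (Esam, Adgrg1, Hlf and Bcl11a), and Procr, the gene called lower, was let in mainly by vehicle libraries, so these are given by their values. The median log2 fold change was 0.32 with MS-275 and 0.27 with CXD101, beside -0.03 over all genes in both cases. Adgrg1 went from 0.84 and 0.79 to 14.3 and 17.6 with MS-275 and to 7.97 and 7.50 with CXD101. Prom1 went from 8.41 and 9.67 to 30.1 and 29.4 and to 32.4 and 35.8, and Satb1, a chromatin organizer, from 3.82 and 4.04 to 10.004 and 10.3 and to 9.94 and 11.2.

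Gfi1, Tal1, Gfi1b and Hoxb4 rose with both inhibitors in PMN-MDSCs. Gfi1 went from 3.63 and 3.24 to 15.7 and 17.0 with MS-275 and to 16.5 and 14.1 with CXD101. Tal1, a helix-loop-helix factor of stem cells, went from 1.57 and 1.82 to 3.88 and 4.95 and to 3.20 and 4.13. Eng and Zfpm1 rose with MS-275 and Flt3l, the ligand gene of Flt3, with CXD101, from 6.70 and 9.37 to 15.1 and 13.3. Kitl, the ligand gene of Kit, was at 0.284 or below in all 12 libraries. Procr was at 2.59 and 2.22 in vehicle, at 0.90 and 0.95 with MS-275 and at 1.08 and 0.69 with CXD101. Esam, an endothelial and stem cell adhesion gene, was at 0 and 0.07 in vehicle, at 2.37 and 1.73 with MS-275 and at 0.64 and 1.01 with CXD101. Hlf was at 0.31 and 0.15, then 1.51 and 1.07, then 1.26 and 0.73. With CXD101 in PMN-MDSCs, the call of Hoxb4 was lost without the second CXD101 library (limma adjusted p = 0.0841) or the first vehicle library (0.0572), and that of Flt3l missed the fold limit without the first vehicle library (log2 fold change 0.55). With MS-275, Hoxb4 missed it without the second MS-275 library (0.57).

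**Figure D4:**
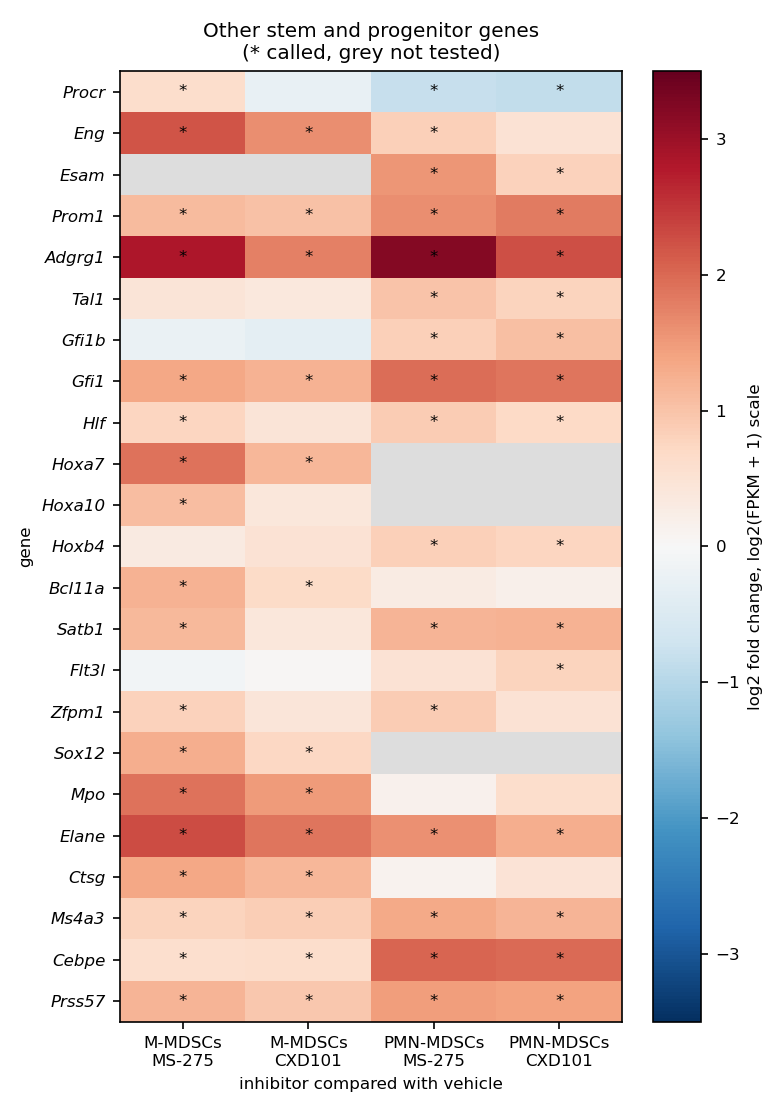
Log2 fold change against vehicle on the log2(FPKM + 1) scale (colour, red higher and blue lower) of every listed stem, progenitor and granulocyte-monocyte progenitor gene called with an inhibitor in either subset, by subset and inhibitor (columns). Stars mark calls and grey marks genes that were not tested, and Adgrg1 is red in all 4 columns while Procr is red with MS-275 in M-MDSCs and blue in PMN-MDSCs.

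Granulocyte-monocyte progenitor genes, which encode primary granule proteins and their regulators, formed a separate list of 7, all of them tested in both subsets. In M-MDSCs 6 of 7 rose with each inhibitor, beside 10.1% of all genes with MS-275 and 5.14% with CXD101, with a median log2 fold change of 1.18 with MS-275 and 0.93 with CXD101. Elane, the neutrophil elastase gene, rose from 436 and 440 to 2064 and 2244 with MS-275 and to 1660 and 1551 with CXD101. Mpo, the myeloperoxidase gene, rose from 298 and 257 to 1018 and 1059 and to 777 and 777. In PMN-MDSCs 4 of 7 rose with each inhibitor (Cebpe, Elane, Ms4a3 and Prss57), beside 14.6% and 11.9%. Between the vehicle groups, 6 of 7 were lower in PMN-MDSCs and Cebpe was higher, beside 16.8% lower and 17.2% higher of all genes.

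MS-275 was called higher than CXD101 in 5 of the 34 listed stem and progenitor genes in M-MDSCs and lower in 0, beside 3.22% and 1.17% of all genes (12 higher and 2 lower at an unadjusted limma p under 0.05). These were Adgrg1 (1.08, SE 0.12, limma adjusted p = 0.00211), Procr (0.88, SE 0.15, limma adjusted p = 0.00999), Satb1 (0.75, SE 0.14, limma adjusted p = 0.0115), Hoxa7 (0.74, SE 0.17, limma adjusted p = 0.024) and Hoxa10, which reached the filter in the MS-275 libraries alone and is a description (0.69, SE 0.16). In PMN-MDSCs the difference was called for Adgrg1 alone of 32, beside 0.465% higher of all genes (0.95, SE 0.13, limma adjusted p = 0.0251), and this call was lost without any 1 of the 4 treated libraries (limma adjusted p from 0.0835 to 0.178). In M-MDSCs the call of Adgrg1 held without each library in turn, and the other calls were lost when single treated libraries were left out. For Procr these were the second CXD101 and the first MS-275 library (limma adjusted p = 0.0554 and 0.0659), for Satb1 the first CXD101 and either MS-275 library (0.0566 to 0.0805) and for Hoxa7 the second CXD101 and either MS-275 library (0.0995 to 0.113). The call of Hoxa7 in M-MDSCs was also lost with a pseudocount of 0.1 (limma adjusted p = 0.0818). In the granulocyte-monocyte progenitor list, limma called 0 of 7 genes between the inhibitors in either subset (4 higher and 1 lower in M-MDSCs, 0 in PMN-MDSCs, at an unadjusted p under 0.05).

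The response of the listed genes was called different between the subsets in both directions. With MS-275, 4 of 36 genes had a higher response in PMN-MDSCs and 8 a lower one, beside 8.65% and 9.48% of all genes. With CXD101, 6 had a higher response and 3 a lower one, beside 7.31% and 6.59%. Esam and Sox12, called with both inhibitors, and Hoxa7, Bcl11a and Cd27, called with MS-275, passed the filter only through treated libraries. Nothing is therefore read from these counts. Eng responded more in M-MDSCs to both inhibitors (-1.37, SE 0.14, limma adjusted p = 8.64e-05 with MS-275). The response of Gfi1b was more positive in PMN-MDSCs to both (1.09, SE 0.23, limma adjusted p = 0.00489 with MS-275). It rose there, while its mean FPKM in M-MDSCs was 4.58 in vehicle, 3.80 with MS-275 and 3.44 with CXD101. In the vehicle libraries 8 of 36 were higher in PMN-MDSCs and 4 lower (22.2% and 11.1%), beside 17.2% and 16.8% of all genes.

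Several of the 10 genes are also used by other cell types, and markers of those cells were read beside them. Cd34 and Erg are expressed in endothelium. Of 13 endothelial markers, 10 were below an FPKM of 1 in all 12 libraries, and Sox17 and Clec14a were at 0 in each. Cdh5, the VE-cadherin gene, was at 0.105 or below throughout. The summed level of the list, here and below with the lower library of a group first, was 12.3 and 15.5 in vehicle M-MDSCs, 36.1 and 43.2 with MS-275 and 27.2 and 28.5 with CXD101. In treated M-MDSCs most of it was Egfl7, called higher with each inhibitor in both subsets, a secreted factor of endothelium and progenitors that also holds a microRNA, at 4.55 and 6.45, at 36.0 and 30.6 and at 19.4 and 17.8. In PMN-MDSCs the sum was 14.6 and 17.6 in vehicle and 9.89 to 13.9 in treated libraries, where Vwf was called lower.

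Kit and Gata2 are high in mast cells and basophils. Of 10 mast cell and basophil markers, 4 were below 1 in all libraries and Mcpt4 and Tpsab1 were at 0 in each. The summed level in M-MDSCs was 10.2 and 14.7 in vehicle, 19.0 and 27.6 with MS-275 and 15.2 and 20.9 with CXD101, and Hdc and Prss34 were called higher there with MS-275, as Kit and Gata2 were high. In PMN-MDSCs the sum was 78.1 and 104 in vehicle, 34.9 and 37.2 with MS-275 and 84.1 and 84.4 with CXD101. Between the vehicle groups, 5 of the 6 markers tested (Cpa3, Fcer1a, Hdc, Mcpt8 and Prss34) were called higher in PMN-MDSCs, beside 17.2% of all genes. Kit and Gata2 were higher there too. Prss34, Mcpt8 and Hdc were the highest of the list, and Hdc was at 0.52 and 1.04 in vehicle M-MDSCs and 2.63 and 2.13 with MS-275. Mcpt8 fell in PMN-MDSCs with MS-275, from 27.4 and 36.9 to 10.3 and 14.0, as did Cpa3, Prss34 and Fcer1a, and it was at 27.7 and 27.8 with CXD101. The low value of Gata2 in PMN-MDSCs came in the same MS-275 libraries in which these markers were low, while Kit was high in them, and the part of such cells in either gene was not tested.

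Eosinophil markers moved with the genes in M-MDSCs, where the summed level of 9 markers was 161 and 197 in vehicle, 396 and 424 with MS-275 and 383 and 412 with CXD101. Of them Ear2, Ear6 and Prg2 were highest, and Prg2 was at 10.6 and 6.56, at 113 and 133 and at 94.0 and 102. With both inhibitors Ear1, Epx, Prg2, Prg3 and Siglecf were called higher in M-MDSCs, and Ear2 with CXD101. In PMN-MDSCs Epx was called lower with each, Ccr3 higher with MS-275 and Ear2 higher with CXD101. The summed level of 7 megakaryocyte and platelet markers was 9.68 and 10.9 in vehicle M-MDSCs, 46.6 and 50.0 with MS-275 and 24.9 and 26.4 with CXD101, and Pf4, Ppbp and Itga2b were highest. In PMN-MDSCs that sum was 21.2 and 39.4 in vehicle, 53.4 and 63.7 with MS-275 and 42.1 and 46.8 with CXD101. Pf4 and Ppbp were called higher with each inhibitor in M-MDSCs and Gp9 with MS-275, and Gp1bb, Gp9 and Ppbp with each in PMN-MDSCs. Flt3 is also a dendritic cell gene, and the summed level of 8 dendritic cell markers went from 48.7 and 50.5 to 16.2 and 20.5 and to 18.8 and 25.7 in M-MDSCs. Batf3, Ccr7 and Clec10a were called lower with each inhibitor in both subsets, and Cd209a in PMN-MDSCs. Their part in the levels of the stem and progenitor genes was not tested.

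The remaining lists were low. The summed level over all 12 libraries was at most 1.48 for 6 erythroid markers, 3.89 for 7 lymphocyte and NK cell markers, 1.94 for 8 lymphoid progenitor markers, 4.61 for 5 stromal markers and 7.83 for 8 hepatocyte and liver tumor markers. The last value was reached in M-MDSCs with MS-275, where Krt18 was at 5.54 and 5.73, and Ttr, Serpina1a, Krt8 and Fgb were at 0 in all libraries. Krt18 was called higher with each inhibitor in both subsets, and in PMN-MDSCs Cd3d was called higher and Il7r lower with each, Cd79a lower with MS-275 and Col1a1 higher with CXD101. Several of these marker genes, Krt18 in M-MDSCs among them, passed the filter only through treated libraries. Of 13 cell cycle genes, 3 (Birc5, Ccnb1 and Ccnb2) were lower with MS-275 in M-MDSCs, beside 7.32% of all genes, and 1 (Ccnb1) in PMN-MDSCs, beside 14.2%. Between the vehicle groups, all 13 were lower in PMN-MDSCs, beside 16.8% of all genes.

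Ly6a, the gene of the stem cell antigen Sca-1, crosses these genes as a Ly6 family member. Its FPKM in M-MDSCs was 1.39 and 1.58 in vehicle, 224 and 254 with MS-275 and 34.5 and 17.1 with CXD101. In PMN-MDSCs it was 11.4 and 5.67, then 140 and 146, then 42.4 and 52.7.

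For the 3 genes that passed an FPKM of 1 in all 12 libraries, Kit, Myb and Erg, the most similar patterns were sought by Pearson's r of log2(FPKM + 1) over the 12 libraries among the 9229 genes compared. For Kit these were Dgka (r = 0.996), Lin28a (0.995) and C5ar2 (0.995). For Myb they were 4933404O12Rik (0.990), Clu (0.987) and Ptgr1 (0.986), and for Erg Rab11fip4 (0.993), Sytl1 (0.990) and Zfp217 (0.989). The points share their libraries and the differences between 6 groups, and the values are a description. None of the 9 genes was on the lists above.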

How the data were processed

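RNA-seq libraries were made with a stranded mRNA kit and read as 101-base single ends. The authors deposited 1 table of FPKM values per library. The submitters' processing notes list TopHat2 2.1.1, Bowtie2 2.2.8, SAMtools 0.1.18, Cuffdiff 2.2.1 and build mm10. Depth was estimated from the spacing of low FPKM values, and precision was taken from replicates.

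Genes that reached an FPKM of 1 in 2 or more libraries were tested with limma 3.58.1 (R 4.3.3, intensity trend, Benjamini-Hochberg adjustment) on log2(FPKM + 1), in each subset separately and in all 12 libraries for contrasts between subsets. The fits were tested on simulated data. P-values rest on the spread between the 2 libraries of each group, pooled over the groups of a fit and moderated across genes by limma. In PMN-MDSCs that spread may be technical. The 10 genes and the gene lists were chosen with earlier results of these data known. Named were the 10 genes, list genes called with an inhibitor, the highest and the called genes of marker lists (of lists that stayed low, the called genes), the 3 most similar patterns (among genes that reached an FPKM of 5 in 2 or more libraries) and Ly6a. Other names were picked with their values in view. Alternatives were a pseudocount of 0.1, no filter, median-of-ratios or quantile scaling, a replicate block, no trend, 1 model for all libraries and each library left out.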

Additional observations from a re-analysis of the deposited data

Results flagged for a closer look

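Gata2 moved in opposite directions in the 2 subsets with MS-275, which was why it is listed here: both treated M-MDSC libraries lay above vehicle and both treated PMN-MDSC libraries below it. The difference in response, PMN-MDSCs minus M-MDSCs, was -2.06 on the log2(FPKM + 1) scale, and it was not tested, because the treated values chose the gene.

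In the lists of further stem and progenitor genes, limma's interaction test called a difference in response for 12 genes with MS-275 and 9 with CXD101. Those let in only by treated libraries are given by value alone. More positive in M-MDSCs with MS-275 were the responses of Procr (-1.43, adjusted p = 0.000981), Eng (-1.37, adjusted p = 8.64e-05), Cd244 (-1.04, adjusted p = 0.00453) and Cd93 (-1.01, adjusted p = 9.87e-06). By value alone the same held for Hoxa7 (-1.06), Bcl11a (-0.94), Cd27 (-0.91) and Sox12 (-0.84). More positive in PMN-MDSCs were those of Gfi1b (1.09, adjusted p = 0.00489), Gfi1 (0.61, adjusted p = 0.00721) and Pbx2 (0.59, adjusted p = 0.00244), and by value alone that of Esam (1.43).

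With CXD101 the response was more positive in PMN-MDSCs for Gfi1b (1.38, adjusted p = 0.00183), Satb1 (0.84, adjusted p = 0.00241), Prom1 (0.80, adjusted p = 0.00603), Flt3l (0.73, adjusted p = 0.0359) and Gfi1 (0.66, adjusted p = 0.00652), all by limma. By value alone the same held for Esam (0.77). The response was more positive in M-MDSCs for Eng (-1.14, adjusted p = 0.000369) and Cd93 (-0.76, adjusted p = 8.86e-05), and by value alone for Sox12 (-0.70). Beside these, 8.65% and 9.48% of all genes had a higher or a lower response in PMN-MDSCs with MS-275, and 7.31% and 6.59% with CXD101. Cd93, a surface lectin-like gene of progenitors, was at an FPKM of 56.0 and 55.9 in vehicle M-MDSCs and 81.8 and 78.9 with MS-275, but at 102 in both vehicle PMN-MDSC libraries and 71.5 and 73.0 with MS-275. Hoxa7 and Sox12 did not pass the filter within PMN-MDSCs, and with MS-275 the calls of both were lost with a pseudocount of 0.1 (adjusted p = 0.45 and 0.191). Esam passed the filter only through treated PMN-MDSC libraries, Hoxa7 and Sox12 only through treated M-MDSC libraries, and Bcl11a and Cd27 only through treated libraries, so a difference of these genes follows in part from the filter, and their values are a description. The calls of Cd27, Gfi1 and Pbx2 with MS-275 and of Esam, Flt3l, Gfi1 and Sox12 with CXD101 were each lost when certain single libraries were left out. Of these, Gfi1 and Pbx2 missed the fold limit only.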

How the results depend on the processing

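Of 412 recomputed differences of the 10 genes from vehicle, 1 changed sign (Gata2 with CXD101 in PMN-MDSCs). The difference in response of Hoxa9 to MS-275 between the subsets turned from -0.64 to 0.16 with a pseudocount of 0.1, as it did from -0.48 to 0.22 with CXD101. MS-275 against CXD101 in PMN-MDSCs gave 2 of the 10 genes higher, but 0 without the filter and 1 each without the intensity trend, with a pseudocount of 0.1 and with the replicate block. Gata2 was called lower with MS-275 in PMN-MDSCs (1 gene), and 0 were lower with median-of-ratios scaling, without the filter and with the replicate block. Of the listed genes, 2 fell with CXD101 in PMN-MDSCs with quantile normalization in place of 1, and with MS-275, 3 fell with a pseudocount of 0.1 and 2 with quantile normalization in place of 1. In M-MDSCs with MS-275, 1 listed gene fell with a pseudocount of 0.1 and 1 with quantile normalization in place of 0. With quantile normalization the call of Hlf with MS-275 was lost in both subsets (adjusted p = 0.153 and 0.0584). The cause was not tested.

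Leaving out 1 library at a time, where the lone library is assumed to vary like the others, gave 0 to 2 of the 10 genes higher for MS-275 against CXD101 in PMN-MDSCs, and 2 to 5 in M-MDSCs (2 without the second MS-275 library). Genes lower than vehicle ranged from 0 to 1 with MS-275 and with CXD101 in M-MDSCs, where Meis1 no longer passed the filter without either vehicle library and was not called with CXD101 without the second CXD101 library, and with MS-275 in PMN-MDSCs (Gata2, 0 without either vehicle or the first MS-275 library). Listed genes that fell with MS-275 ranged from 0 to 1 in M-MDSCs and 1 to 2 in PMN-MDSCs (2 without the second MS-275 library). Listed genes with a higher response to MS-275 in PMN-MDSCs ranged from 2 to 6 (2 without the second MS-275 library of PMN-MDSCs, 6 without the first).

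Replicate numbers carry no stated pairing. Within each subset, replicate differences (library 2 minus library 1) correlated between treatment groups with r from -0.139 to 0.088. The block changed no other of these counts by over 1.5 times. Whether same-numbered M-MDSC and PMN-MDSC libraries came from the same mice is not given and was not checked. The tests between the subsets treated all libraries as independent. Over all genes, the count lower with MS-275 than with CXD101 in PMN-MDSCs was 38 without the block and 25 with it. Low depth limits Flt3 in both subsets, Gata2 in M-MDSCs and Hoxa9 and Spink2 in PMN-MDSCs, which rested on few reads in vehicle libraries. Groups of 2 libraries limit every test.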
